A study of Mus musculus with 34 samples.

Results

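Bile acid synthesis in the liver and its control by the bile acid receptor FXR are described here through 10 genes, named by their role in the pathway, with earlier results of these data known. They are the enzyme genes Cyp7a1, Cyp8b1, Cyp27a1, Cyp7b1, Hsd3b7, Akr1d1 and Baat, the FXR gene Nr1h4, Nr0b2 for the repressor SHP, and the FGF receptor gene Fgfr4. They make up 10 of the 78298 genes in the deposited table, and all 10 were among the 14980 genes with enough counts to be tested. The study removed 70% of the liver by partial hepatectomy (PHx) from mice that lacked Sirt1 in the gut and from controls, and asked how an intestinal gene bears on liver regeneration. Whole liver was profiled by bulk RNA-seq at 0 h, an untreated baseline without surgery, and at 6 h and 24 h after PHx. All animals were male C57/Bl6 mice 8 to 12 weeks old. SIRT1intKO mice carried Sirt1 with loxP sites around exon 4 and a Cre recombinase driven by the Villin promoter, which acts in the intestinal epithelium. WT animals, the controls, carried the loxP sites without the Cre, so the floxed allele was common to all groups. The labels give 6, 6 and 4 WT libraries and 6, 5 and 7 SIRT1intKO libraries at 0, 6 and 24 h. The authors' figure legends give 5 livers per group at 6 h and 5 WT livers at 24 h, and 1 column of the deposited table matched no library.

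Cholesterol becomes bile acid in hepatocytes by a classic route, which CYP7A1 opens, and by an acidic route through CYP27A1 and CYP7B1. Bile acids that return to the hepatocyte bind FXR, which raises the repressor SHP, and bile acids in the ileum make the gut release FGF15, which acts on the liver receptor FGFR4 with its partner beta-Klotho. Both arms are known to lower Cyp7a1 and Cyp8b1, so that less bile acid is made when more of it returns.

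Levels are given in CPM after TMM scaling, from expected counts that the authors deposited. Counts per library ran from 14892122 to 23480492 over the 34 libraries, with a median of 16807340. A difference was called when the edgeR quasi-likelihood test gave a Benjamini-Hochberg adjusted p under 0.05 over all tested genes together with an absolute log2 fold change over 1. All 9 hepatocyte markers examined were above 0 in every library, and Alb, between 15000 and 56300 CPM, was the most abundant of them in 32 libraries and Trf in WT replicates 1 and 2 at 24 h. Their summed level averaged 85200 CPM in WT and 85800 CPM in SIRT1intKO livers at 0 h, 65400 and 71600 CPM at 6 h, and 57900 and 72000 CPM at 24 h. Because whole liver was sequenced, fewer hepatocytes and less RNA per hepatocyte cannot be told apart in any result given here.

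Hepatic Sirt1 (ENSMUSG00000020063), the gene deleted in the intestine of SIRT1intKO mice, was present in every liver. Its level ran from 8.35 to 15.7 CPM (median 12.1) in WT and from 9.48 to 16.3 CPM (median 10.8) in SIRT1intKO livers at 0 h. At 6 h it ran from 8.85 to 14 CPM (median 11.2) in WT livers and was 15.6, 7.96, 7.55, 10.3 and 10.2 CPM in SIRT1intKO livers. By 24 h Sirt1 was 23.1, 11.3, 8.8 and 11.2 CPM in WT livers and 6.92 to 13.5 CPM (median 7.87) in SIRT1intKO livers. The genotypes overlapped at each time, with a log2 fold change at 24 h of -0.65 (SE 0.22, edgeR adjusted p = 0.0726). These liver values cannot verify which animals carried the intestinal deletion.

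The 11 libraries at 24 h did not split by genotype. WT replicates 3 and 4 and SIRT1intKO replicate 5 resembled each other, with Pearson's r of 0.98 to 0.983 across the tested genes, which are not independent replicates. WT replicates 1 and 2 resembled WT replicates 3 and 4 less, at 0.889 to 0.918. At 6 h, SIRT1intKO replicates 2 and 3 stood apart from the other 3 of their group in Nr0b2 and in other FXR target genes. Fits without these 3 libraries at 24 h or these 2 at 6 h were chosen after seeing the data. Their values are given beside the results that rest on them. For a gene in which the omitted livers were the highest or the lowest, such a fit is no test, since the omission sets the change. The same holds for a fit without 1 library that was the highest or lowest of its group in that gene. The labels name the 0 h libraries from 4103 to 4120 and those after PHx from 1721 to 1748, so any difference in handling between the series cannot be told apart from PHx. The clock time of harvest is not given.

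At 0 h Cyp7b1, Cyp8b1, Hsd3b7 and Cyp27a1 were the most abundant of the 10 per exon length. Cyp7b1 had a mean of 222, Cyp8b1 of 219, Hsd3b7 of 211 and Cyp27a1 of 197 CPM per kilobase of exon in WT livers, values that do not differ beyond the spread between livers. Baat came next at 120, followed by Nr0b2 at 49.8, and then by Nr1h4 at 33.7 and Akr1d1 at 32.5 CPM per kilobase, which also lie within their spread. Fgfr4 at 9.87 and Cyp7a1 at 5.68 CPM per kilobase were the lowest, although CYP7A1 sets the rate of the classic route. In SIRT1intKO livers Cyp7b1 was again the highest, at 261, and Cyp7a1 the lowest, at 7.83 CPM per kilobase.

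Before surgery the genotypes did not differ detectably in any of the 10 genes. Between SIRT1intKO and WT livers at 0 h edgeR called 0 of the 10, against 0.0% of all tested genes. For the 10 genes, 0 had an unadjusted p under 0.05, and DESeq2 also called 0. Log2 fold changes ran from -0.17 for Nr0b2 to 0.46 for Cyp7a1, with a median of 0.02 beside -0.01 over all tested genes. The 95% interval for Cyp7a1 was wide, from -1.13 to 2.05.

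**Figure D1:**
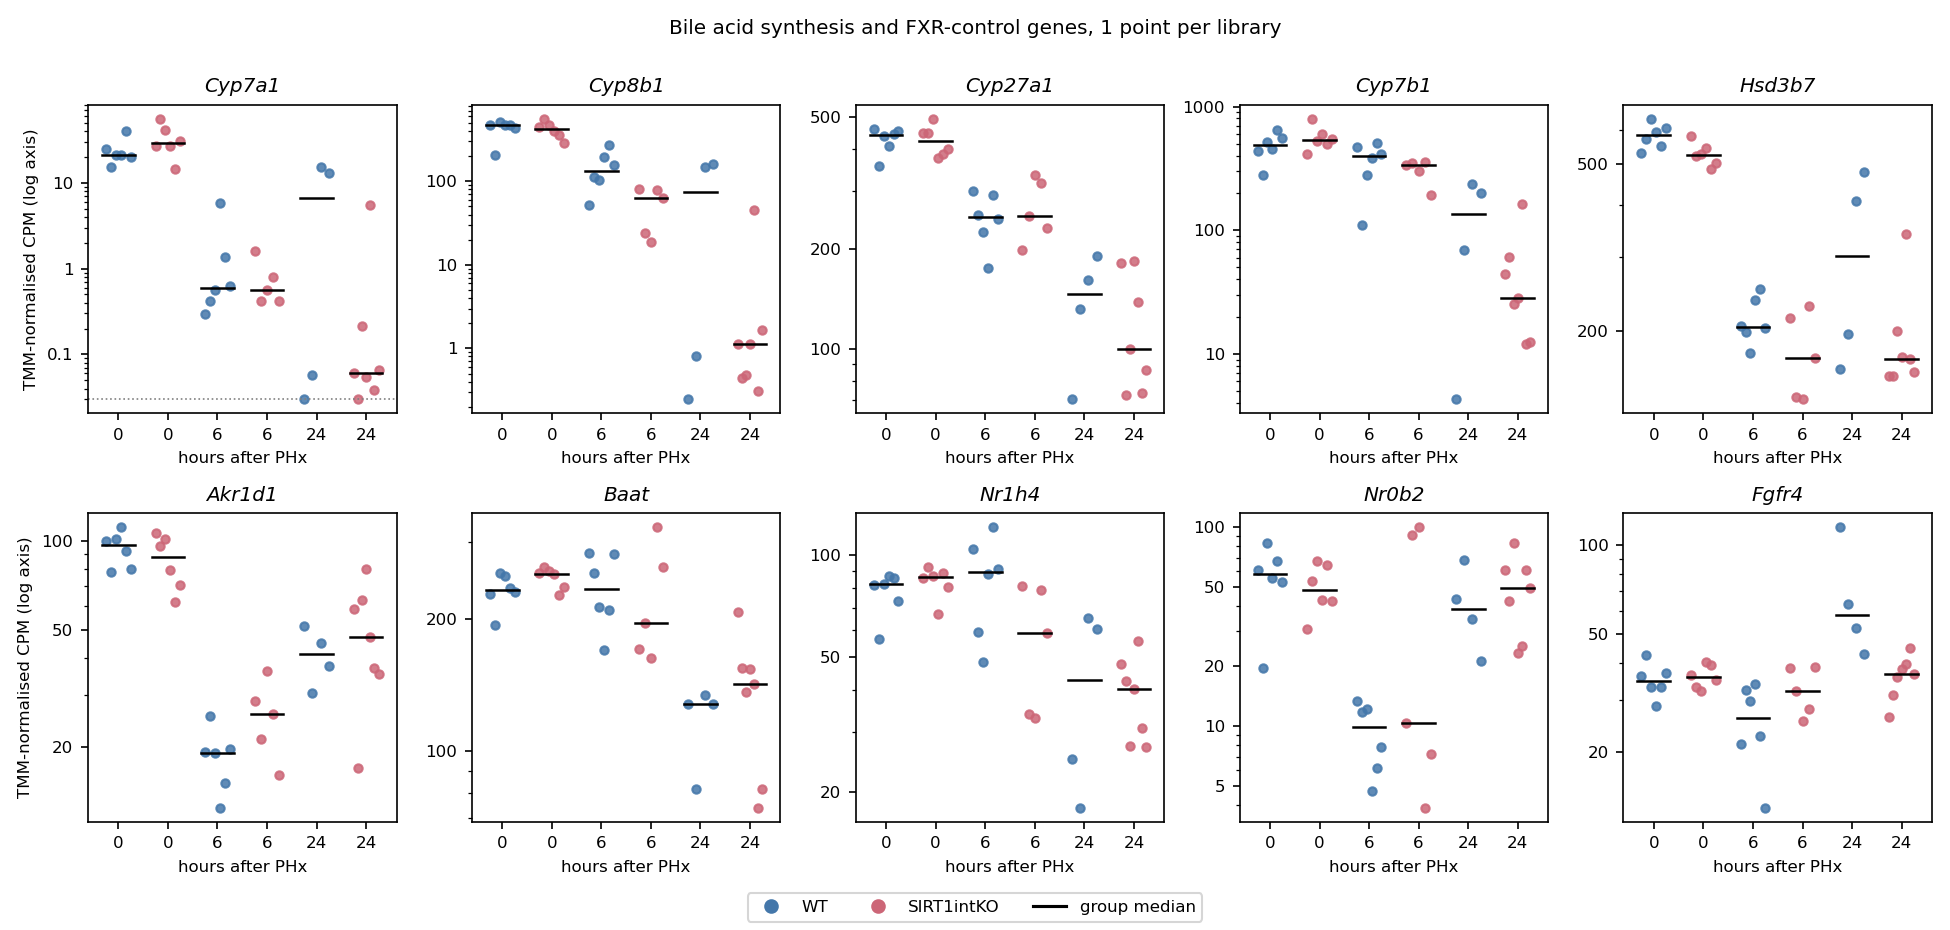
Level of each of the 10 genes in each of the 34 livers, in CPM on a log axis, against genotype and hours after PHx; each point is 1 liver, WT in blue and SIRT1intKO in red, and a black bar marks the group median. Livers with 0 counts of Cyp7a1 are drawn on the dotted line, and Cyp7a1 and Cyp8b1 at 24 h spread over a wider range than at 0 h.

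After PHx most of the enzyme genes fell in at least 1 genotype, and none of the 10 genes was called higher than at 0 h. At 6 h, 4 of the 10 genes fell in WT livers, where 15.6% of all tested genes were called, and 4 of the 10 fell in SIRT1intKO livers, where 16.6% were. Cyp7a1, Akr1d1 and Hsd3b7 fell in both, joined by Nr0b2 in WT and by Cyp8b1 in SIRT1intKO livers. At 24 h, 3 of the 10 were below 0 h by the test in WT livers (15.7% of all genes called), namely Cyp7b1, Cyp27a1 and Akr1d1. In SIRT1intKO livers 6 of the 10 were (23% of all genes called), namely Cyp8b1, Cyp7a1, Cyp7b1, Cyp27a1, Hsd3b7 and Nr1h4. The median log2 fold change of the 10 genes was -1.12 in WT and -0.78 in SIRT1intKO livers at 6 h, and -1.08 and -1.27 at 24 h, beside 0.02, 0.01, 0.02 and 0.04 over all tested genes. Their summed level averaged 2440 and 2480 CPM at 0 h, 1350 and 1190 CPM at 6 h, and 973 and 680 CPM at 24 h in WT and SIRT1intKO livers. DESeq2 called the same genes among the 10 in each of these comparisons. The comparisons of 6 h and 24 h with 0 h share their 0 h livers.

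**Figure D2:**
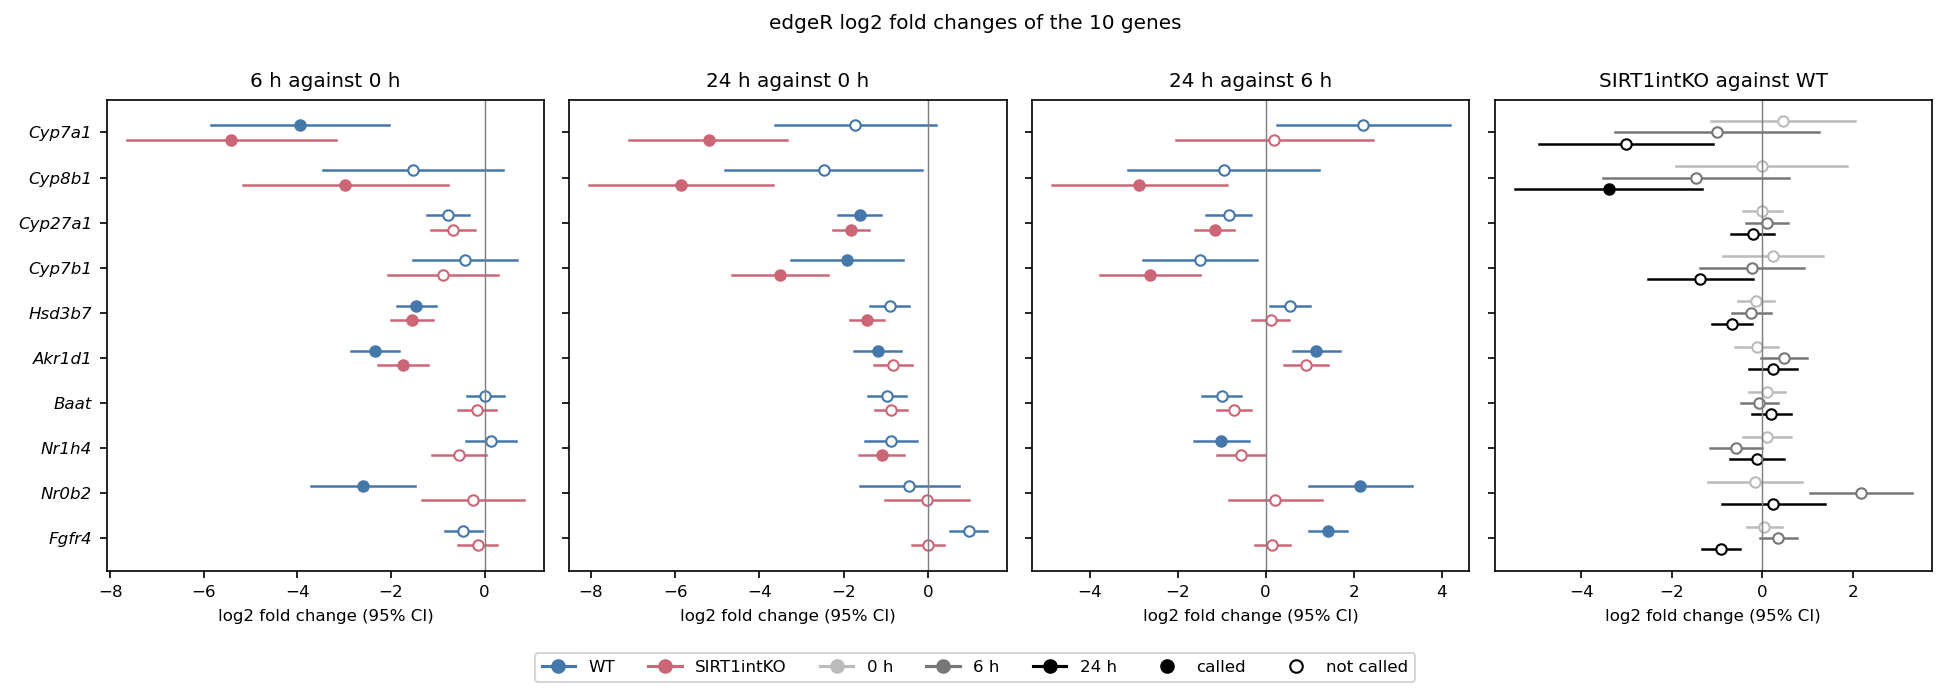
Log2 fold change of each of the 10 genes with its 95% confidence interval, for 6 h against 0 h, 24 h against 0 h and 24 h against 6 h within each genotype, and for SIRT1intKO against WT at 0, 6 and 24 h; filled points passed the test. All filled points against 0 h lie below 0, and between genotypes only Cyp8b1 at 24 h is filled.

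Cyp7a1 (ENSMUSG00000028240), whose enzyme starts the classic route and limits its rate, had nearly vanished by 6 h. At 0 h it ran from 15.3 to 39.7 CPM (median 21.3) in WT and from 14.5 to 55.9 CPM (median 28.7) in SIRT1intKO livers. At 6 h it ran from 0.292 to 5.77 CPM (median 0.592) in WT livers and was 1.6, 0.423, 0.566, 0.789 and 0.419 CPM in SIRT1intKO livers. Every liver at 6 h lay below every liver of its genotype at 0 h. The mean was 15.7-fold lower in WT (log2 fold change -3.94, SE 0.929, edgeR adjusted p = 0.0012) and 43.0-fold lower in SIRT1intKO livers (-5.41, SE 1.1, edgeR adjusted p = 0.000265). WT replicate 4 held the highest level at 6 h, 5.77 CPM, and without it the WT value was -5.18 (edgeR adjusted p = 0.000307).

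At 24 h Cyp7a1 split the WT livers. It was 0, 0.0571, 15.2 and 13.1 CPM in WT replicates 1 to 4, and ran from 0 to 5.54 CPM (median 0.0602) in SIRT1intKO livers. The high livers were WT replicates 3 and 4 and SIRT1intKO replicate 5, the 3 that resembled each other, and no other liver at 24 h exceeded 0.213 CPM. The counts of 0 in WT replicate 1 and SIRT1intKO replicate 2 allow up to 3 counts, or 0.184 and 0.22 CPM, counting error only. Against 0 h the fall in SIRT1intKO livers was 38.3-fold in the means (log2 fold change -5.21, SE 0.921, edgeR adjusted p = 2.98e-05), and -8.68 without replicate 5 (edgeR adjusted p = 7.13e-08). Replicate 5 was the highest of its group, so this omission is no test. The WT livers at 24 h all lay below those at 0 h, but the log2 fold change of -1.73 (SE 0.939) did not pass, with an edgeR adjusted p of 0.155. Without the 3 libraries at 24 h, which leaves 2 WT livers, it was -9.3. This is no test, since the omitted WT livers were those with high Cyp7a1.

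Between 6 h and 24 h the direction of Cyp7a1 depended on the same livers. In WT the log2 fold change was 2.22 (edgeR adjusted p = 0.113), and it passed without WT replicate 4 at 6 h (3.45, edgeR adjusted p = 0.0263) or without SIRT1intKO replicate 5 at 24 h (2.21, edgeR adjusted p = 0.0404). Without the 3 libraries at 24 h, the values from 6 h to 24 h were -5.38 in WT and -3.23 in SIRT1intKO livers. This is no test, since the omitted libraries held the highest Cyp7a1 at 24 h. With all livers the SIRT1intKO value was 0.2 (edgeR adjusted p = 0.915).

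Cyp8b1 (ENSMUSG00000050445) makes the sterol hydroxylase that directs the classic route to cholic acid. Its promoter and that of Nr0b2 are shown because these genes moved with the livers that stood apart. RefSeq promoters (build GRCm38.p6) were at hand for 7 of the 10 genes, not for Cyp7a1, Cyp7b1 and Baat, and the 250 bases before the start were searched on both strands. Capitals mark CAAAGTCCA, a core bound by HNF4A, in 0.384% of 32851 promoters of that length, and TATAAA, the TATA box, in 12.4%. For Cyp8b1 they lie 67 to 59 and 31 to 26 bases before the start. The window is chr9:121916306-121916555, minus strand.
Cyp8b1: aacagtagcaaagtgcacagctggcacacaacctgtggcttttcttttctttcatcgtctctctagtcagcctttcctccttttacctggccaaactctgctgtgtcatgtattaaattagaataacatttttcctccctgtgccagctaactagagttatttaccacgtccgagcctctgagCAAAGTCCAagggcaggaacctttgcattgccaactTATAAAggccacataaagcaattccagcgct
A match describes the letters and does not show a site in use. Of the other motifs searched, AGGTCA (bound by many nuclear receptors, 14% of promoters), TCAAGG (bound by NR5A2, 12.5%), GTTAAT (HNF1, 6.43%), TTATGTAA (D-box, 0.819%) and AGGTCANTGACCT (the inverted repeat bound by FXR with RXR, 0.00609%), Cyp8b1 held none.

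Cyp8b1 ran from 207 to 511 CPM (median 469) in WT and from 288 to 563 CPM (median 426) in SIRT1intKO livers at 0 h. At 6 h it ran from 51.6 to 273 CPM (median 134) in WT livers and was 82, 23.8, 18.6, 78.7 and 64 CPM in SIRT1intKO livers. The SIRT1intKO livers at 6 h all lay below those at 0 h, while the WT livers overlapped with theirs. The fall in SIRT1intKO livers was 7.89-fold by means (log2 fold change -2.98, SE 1.07, edgeR adjusted p = 0.0276). It did not pass without SIRT1intKO replicate 2 (-2.82, edgeR adjusted p = 0.065), replicate 3 (-2.76, edgeR adjusted p = 0.0668) or both (-2.52, edgeR adjusted p = 0.156). In WT livers the value was -1.52 (SE 0.946, edgeR adjusted p = 0.213), and -1.5 without the 3 libraries at 24 h (edgeR adjusted p = 0.00145), which passed. The interaction, meaning the SIRT1intKO change less the WT change, was -1.46 at 6 h (edgeR adjusted p = 1.0).

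At 24 h Cyp8b1 was high and low in the same livers as Cyp7a1. It was 0.246, 0.8, 147 and 159 CPM in WT replicates 1 to 4, and 1.14, 0.44, 0.479, 1.14, 45.3, 0.305 and 1.64 CPM in SIRT1intKO replicates 1 to 7. Every liver at 24 h was below every liver of its genotype at 0 h, and the same 3 libraries held all values above 1.64 CPM. The fall from 0 h in SIRT1intKO livers was 58.4-fold in the means (log2 fold change -5.86, SE 1.07, edgeR adjusted p = 4.68e-05), and -8.9 without replicate 5 (edgeR adjusted p = 2.57e-08). The latter is no test, since replicate 5 was the highest of its group. In WT livers the log2 fold change was -2.47 (SE 1.14, edgeR adjusted p = 0.0925), a value that passed without SIRT1intKO replicate 5 (-2.47, edgeR adjusted p = 0.0219). Without the 3 libraries the WT value was -9.6, which is no test, since the omitted livers were those with high Cyp8b1. From 6 h to 24 h Cyp8b1 fell further in SIRT1intKO livers (log2 fold change -2.88, SE 0.975, edgeR adjusted p = 0.0269; -5.92 without replicate 5). That call was lost without SIRT1intKO replicates 1 or 2 at 24 h (-2.67 and -2.65) or 1 or 4 at 6 h (-2.65 and -2.68), with edgeR adjusted p from 0.0507 to 0.0598.

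**Figure D3:**
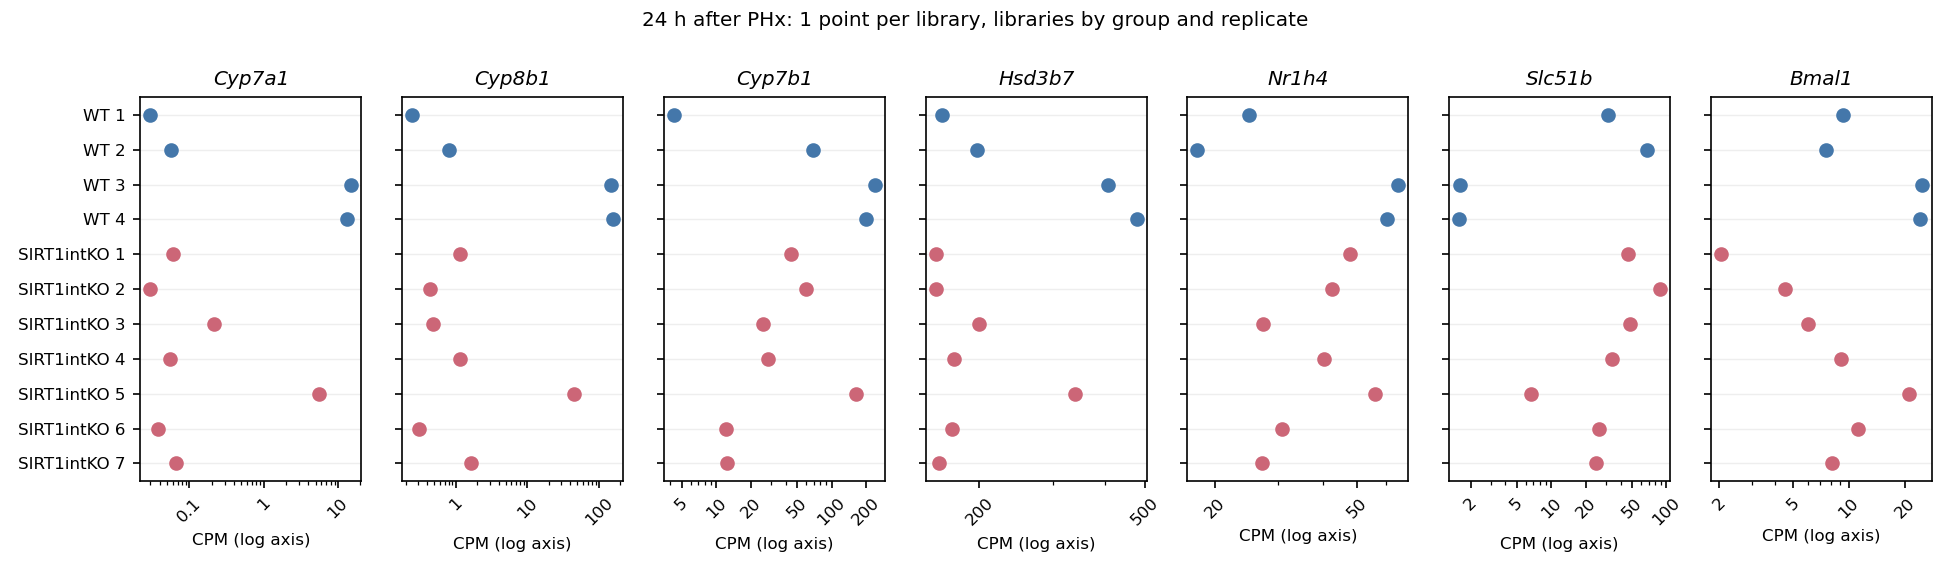
Levels of Cyp7a1, Cyp8b1, Cyp7b1, Hsd3b7, Nr1h4, Slc51b and Bmal1 in each of the 11 livers at 24 h, in CPM on log axes, 1 line per liver, with 0 counts of Cyp7a1 drawn at the left edge. WT replicates 3 and 4 and SIRT1intKO replicate 5 hold the highest Cyp7a1, Cyp8b1, Hsd3b7 and Bmal1 and the lowest Slc51b.

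Both genes of the acidic route passed the test at 24 h in each genotype and at 6 h in neither. Cyp27a1 (ENSMUSG00000026170), which oxidises the sterol side chain, ran from 357 to 459 CPM in WT and from 376 to 495 CPM in SIRT1intKO livers at 0 h. It was 175 to 300 CPM in WT and 199 to 334 CPM in SIRT1intKO livers at 6 h, then 70.4, 132, 161 and 191 CPM in WT and 72.3 to 184 CPM in SIRT1intKO livers at 24 h. All livers after PHx lay below all livers of their genotype at 0 h. At 6 h the log2 fold changes of -0.78 in WT and -0.68 in SIRT1intKO livers had edgeR adjusted p of 0.00498 and 0.0188 but stayed within the fold threshold. At 24 h Cyp27a1 fell 3.08-fold in WT (log2 fold change -1.62, SE 0.255, edgeR adjusted p = 2.13e-05) and 3.56-fold in SIRT1intKO livers (-1.83, SE 0.21, edgeR adjusted p = 5.92e-08).

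Cyp7b1 (ENSMUSG00000039519), which hydroxylates oxysterols on the acidic route, ran from 280 to 641 CPM in WT and from 411 to 798 CPM in SIRT1intKO livers at 0 h. At 6 h it ran from 110 to 508 CPM in WT livers, overlapping 0 h, and was 334, 350, 300, 354 and 194 CPM in SIRT1intKO livers, all below 0 h. By 24 h Cyp7b1 was 4.3, 68.7, 238 and 200 CPM in WT and 44.4, 60.5, 25.4, 28.1, 163, 12.1 and 12.4 CPM in SIRT1intKO livers. The 3 high livers were again WT replicates 3 and 4 and SIRT1intKO replicate 5. Neither genotype passed at 6 h, WT livers at -0.42 (edgeR adjusted p = 0.582), SIRT1intKO livers at -0.88 (edgeR adjusted p = 0.233). At 24 h Cyp7b1 fell 11.4-fold in SIRT1intKO livers (log2 fold change -3.52, SE 0.562, edgeR adjusted p = 7.86e-06) and 3.76-fold in WT livers (-1.91, SE 0.65, edgeR adjusted p = 0.0226). The WT call was lost without WT replicate 1 (-1.51, edgeR adjusted p = 0.0552) or 2 (-1.71, edgeR adjusted p = 0.0895), and the value was -3.68 without the 3 libraries (edgeR adjusted p = 0.000153). The last is no test, since the omitted WT livers were those with high Cyp7b1.

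Hsd3b7 and Akr1d1, whose enzymes change the sterol ring system, fell in both genotypes at 6 h. Hsd3b7 (ENSMUSG00000042289) ran from 530 to 640 CPM in WT and from 486 to 581 CPM in SIRT1intKO livers at 0 h, and from 178 to 252 CPM and 138 to 230 CPM at 6 h. By 24 h Hsd3b7 was 163, 197, 407 and 477 CPM in WT and 157, 157, 200, 174, 340, 172 and 160 CPM in SIRT1intKO livers. Every liver after PHx lay below those of its genotype at 0 h, and the highest at 24 h were the same 3 libraries. Hsd3b7 fell 2.74-fold in WT (log2 fold change -1.46, SE 0.205, edgeR adjusted p = 1.86e-06) and 2.94-fold in SIRT1intKO livers (-1.56, SE 0.219, edgeR adjusted p = 2.21e-06) at 6 h. At 24 h it fell 2.71-fold in SIRT1intKO livers (-1.44, SE 0.195, edgeR adjusted p = 7.42e-07). In WT livers it was -0.91 (edgeR adjusted p = 0.00316), past the fold threshold without WT replicate 3 (-1.06), replicate 4 (-1.19) or the 3 libraries (-1.66, edgeR adjusted p = 1.83e-08). These omissions are no test, since WT replicates 3 and 4 held the highest Hsd3b7 of the WT livers at 24 h.

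Akr1d1 (ENSMUSG00000038641), whose enzyme reduces a double bond of the ring, ran from 78.2 to 111 CPM in WT and from 62.1 to 106 CPM in SIRT1intKO livers at 0 h. It was 12.5 to 25.5 CPM in WT and 28.7, 21.3, 36.2, 25.9 and 16.2 CPM in SIRT1intKO livers at 6 h. By 24 h Akr1d1 was 51.6, 30.6, 45 and 37.6 CPM in WT and 17 to 80.3 CPM (median 47.3) in SIRT1intKO livers. Unlike Cyp7a1, it was not highest in the 3 libraries at 24 h. Akr1d1 fell 5.07-fold in WT (log2 fold change -2.34, SE 0.25, edgeR adjusted p = 2e-08) and 3.35-fold in SIRT1intKO livers (-1.74, SE 0.26, edgeR adjusted p = 5.34e-06) at 6 h. At 24 h it remained 2.28-fold lower in WT livers (-1.19, SE 0.275, edgeR adjusted p = 0.0014), while in SIRT1intKO livers the value of -0.83 (edgeR adjusted p = 0.00317) reached -1.0 and passed without SIRT1intKO replicate 4 (edgeR adjusted p = 0.000547). Its RefSeq promoter holds AGGTCA on the opposite strand at 232 to 227 and 210 to 205 bases before the start, the nearer copy overlapping TCAAGG at 213 to 208.

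Baat (ENSMUSG00000039653), which joins bile acids to taurine, did not pass the test at 6 h or 24 h. It ran from 194 to 255 CPM in WT and from 227 to 263 CPM in SIRT1intKO livers at 0 h, and from 170 to 284 CPM and 163 to 325 CPM at 6 h, a wider spread in both genotypes. At 24 h it was 128, 81.8, 134 and 128 CPM in WT and 73.9 to 208 CPM (median 142) in SIRT1intKO livers, all below 0 h. On the log2 scale Baat at 24 h was at -0.98 in WT (edgeR adjusted p = 0.00113), and SIRT1intKO livers had -0.87 (edgeR adjusted p = 0.000257). The WT value passed without WT replicate 1 (-1.02), 3 (-1.04) or 4 (-1.02) at 24 h or WT replicate 2 at 0 h (-1.03), and the SIRT1intKO value without replicate 1 (-1.03).

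Nr1h4 (ENSMUSG00000047638), the FXR gene, was called lower than at 0 h only in SIRT1intKO livers at 24 h. It ran from 56.5 to 86.7 CPM in WT and from 66.8 to 92.3 CPM in SIRT1intKO livers at 0 h. At 6 h it ran from 48.2 to 121 CPM in WT and was 80.9, 33.9, 33.1, 79.1 and 58.8 CPM in SIRT1intKO livers, where replicates 2 and 3 were the lowest. At 24 h it was 24.9, 17.9, 65.1 and 60.5 CPM in WT and 27.1 to 55.9 CPM (median 40.3) in SIRT1intKO livers. Against 0 h Nr1h4 fell 2.15-fold in SIRT1intKO livers at 24 h (log2 fold change -1.10, SE 0.256, edgeR adjusted p = 0.000692). The WT value of -0.88 (edgeR adjusted p = 0.025) passed without WT replicate 3 (-1.16) or 4 (-1.11), and was -1.83 without the 3 libraries (edgeR adjusted p = 5.75e-05). These fits are no test, since WT replicates 3 and 4 held the highest Nr1h4 of the WT livers at 24 h. The Nr1h4 promoter holds AGGTCA at 214 to 209 bases on the opposite strand and GTTAAT at 40 to 35, and those of Cyp27a1, Hsd3b7 and Fgfr4 hold none of the 7 motifs.

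Nr0b2 (ENSMUSG00000037583) makes SHP, which FXR induces and which holds back Cyp7a1 and Cyp8b1. Its RefSeq promoter, chr4:133553126-133553375, plus strand, has 2 copies of TCAAGG, the sequence bound by NR5A2, at 68 to 63 and 35 to 30 bases before the start, and TATAAA at 28 to 23. These are in capitals.
Nr0b2: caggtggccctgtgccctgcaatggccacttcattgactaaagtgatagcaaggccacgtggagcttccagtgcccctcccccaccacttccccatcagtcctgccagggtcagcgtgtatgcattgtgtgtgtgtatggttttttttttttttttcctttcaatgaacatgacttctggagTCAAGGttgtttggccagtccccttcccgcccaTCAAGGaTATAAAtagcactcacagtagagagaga
Nr0b2 ran from 19.6 to 83.1 CPM (median 58) in WT and from 30.7 to 66.9 CPM (median 48.1) in SIRT1intKO livers at 0 h. At 6 h it ran from 4.72 to 13.3 CPM (median 9.85) in WT livers, all below 0 h, and was 10.4, 91.3, 99.4, 3.88 and 7.19 CPM in SIRT1intKO livers. Replicates 2 and 3 were thus above all WT livers at 6 h and the other 3 within or below their range. Nr0b2 fell 6.03-fold in WT livers (log2 fold change -2.59, SE 0.547, edgeR adjusted p = 0.000387). In SIRT1intKO livers the value was -0.24 (edgeR adjusted p = 0.751), with 3 livers below every liver at 0 h and 2 above. At 24 h it was 43.2, 67.9, 34.3 and 21.1 CPM in WT and 23.3 to 82.4 CPM (median 49.5) in SIRT1intKO livers, overlapping 0 h, and the log2 fold change was -0.44 (edgeR adjusted p = 0.585) in WT livers, -0.03 in the others.

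Fgfr4 (ENSMUSG00000005320), the hepatocyte receptor of FGF15, was the only one of the 10 genes whose WT livers at 24 h all lay above those at 0 h. It ran from 28.5 to 42.4 CPM in WT and from 32.1 to 40.3 CPM in SIRT1intKO livers at 0 h, and from 12.9 to 33.8 CPM and 25.3 to 38.6 CPM at 6 h. WT livers at 24 h had 115, 63.2, 52.4 and 42.8 CPM and SIRT1intKO livers 26.1 to 45 CPM (median 36.7). The WT mean at 24 h was 1.95-fold that at 0 h (log2 fold change 0.97, edgeR adjusted p = 0.000881), just within the fold threshold. The value passed without WT replicate 2 (1.01), 3 (1.08) or 4 (1.14) at 24 h or WT replicate 2 at 0 h (1.03), and was 0.61 without WT replicate 1 at 24 h (edgeR adjusted p = 0.0276). In SIRT1intKO livers it was 0.0. On the list of FGF15's receptor partner and ligand, Klb, for beta-Klotho, ran from 0.914 to 10.2 CPM over all livers and was called lower in WT livers at 6 h (-1.08, SE 0.421, edgeR adjusted p = 0.0426) and in no other comparison, a call lost without any 1 of WT replicates 2, 3, 5 and 6 at 6 h, WT replicates 1, 3 and 4 at 0 h and SIRT1intKO replicate 6 at 24 h (-0.93 to -1.09). Fgf15 had 0 counts in 32 of 34 libraries and was not tested.

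From 6 h to 24 h, 3 of the 10 genes rose and 1 fell in WT livers, where 7.16% of all tested genes were called, and 3 fell in SIRT1intKO livers, where 10.6% were. In WT livers Fgfr4 rose 2.69-fold (log2 fold change 1.42, SE 0.213, edgeR adjusted p = 3.99e-05), Nr0b2 4.46-fold (2.15, SE 0.577, edgeR adjusted p = 0.0101) and Akr1d1 2.22-fold (1.15, SE 0.264, edgeR adjusted p = 0.00323). Nr1h4 fell in WT livers (-1.02, SE 0.306, edgeR adjusted p = 0.0213), close to the threshold. When single libraries were omitted in turn, 15 of 34 omissions lost that call, with -0.75 without WT replicate 2 and -0.81 without WT replicate 1 at 24 h, -0.87 without WT replicate 5 and -0.93 without WT replicate 1 at 6 h, and -0.99 or -1.0 in the others. These were SIRT1intKO replicates 1, 2, 4 and 5 and WT replicate 4 at 6 h, SIRT1intKO replicates 1 and 2 at 24 h, and SIRT1intKO replicates 2, 4 and 5 and WT replicate 6 at 0 h. Without the 3 libraries at 24 h it was -1.98 (edgeR adjusted p = 5.83e-05), which is no test, since the omitted WT livers held the highest Nr1h4.

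In SIRT1intKO livers Cyp8b1, Cyp7b1 (log2 fold change -2.64, SE 0.558, edgeR adjusted p = 0.000845) and Cyp27a1 (-1.16, SE 0.216, edgeR adjusted p = 0.000239) fell from 6 h to 24 h. In WT livers Cyp27a1 was at -0.84 (edgeR adjusted p = 0.018), and passed without WT replicate 4 at 24 h (-1.04). Akr1d1 in SIRT1intKO livers was 0.91 (edgeR adjusted p = 0.00656) and passed without replicate 2 (1.08) or 6 (1.0) at 24 h or replicate 3 at 6 h (1.07). Baat in WT livers was -1.0 (edgeR adjusted p = 0.00252), just within the threshold, and passed without WT replicate 1 (-1.02), 3 (-1.04) or 4 (-1.04) at 24 h or 4 (-1.05) or 5 (-1.01) at 6 h. The median log2 fold change of the 10 genes was -0.15 in WT and -0.22 in SIRT1intKO livers, beside 0.01 and -0.01 over all tested genes.

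Between genotypes at 6 h, Nr0b2 differed most, and it did so through 2 of 5 SIRT1intKO livers. edgeR called 0 of the 10 genes, against 0.0% of all tested genes, with 2 of the 10 (Nr0b2 and Nr1h4) at an unadjusted p under 0.05, and DESeq2 called 0 of the 10. The log2 fold change of Nr0b2 was 2.18 (SE 0.556, 95% interval 1.05 to 3.31, edgeR adjusted p = 0.558), 1.68 without SIRT1intKO replicate 2 and 1.59 without replicate 3. Without both it turned to -0.39, which is no test, since these 2 livers had been picked by their Nr0b2. For Nr1h4 it was -0.58 (edgeR adjusted p = 0.764; -0.23 without both), for Cyp8b1 -1.47 (edgeR adjusted p = 0.792; -0.99 without both) and for Cyp7a1 -1.0 (edgeR adjusted p = 0.89). The median over the 10 was -0.16 beside 0.01 over all tested genes. For the interaction at 6 h edgeR again called 0 of the 10 (0.0% of all genes), 1 of them, Nr0b2 (2.35, SE 0.751, edgeR adjusted p = 1.0), had an unadjusted p under 0.05, and DESeq2 called 0. The fall of Nr0b2 in WT and not in SIRT1intKO livers is therefore not shown to differ between genotypes (-0.22 without both replicates). The interaction of Cyp7a1 was -1.47 and that of Nr1h4 -0.68 (edgeR adjusted p = 1.0 each).

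**Figure D4:**
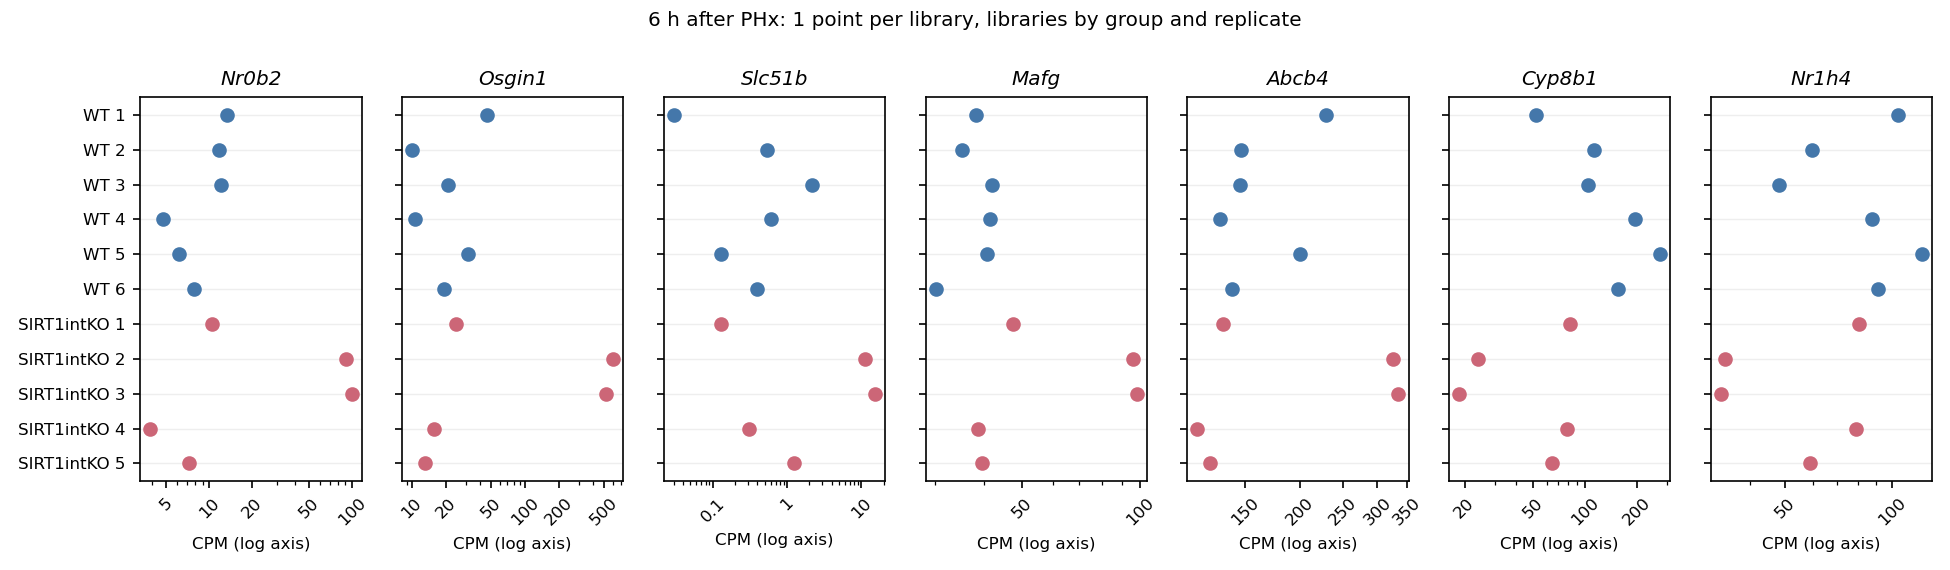
Levels of Nr0b2, Osgin1, Slc51b, Mafg, Abcb4, Cyp8b1 and Nr1h4 in each of the 11 livers at 6 h, in CPM on log axes, 1 line per liver, with the 0 count of Slc51b in WT replicate 1 drawn at the left edge. SIRT1intKO replicates 2 and 3 hold the highest Nr0b2, Osgin1, Slc51b, Mafg and Abcb4 and the lowest Cyp8b1 and Nr1h4.

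Between genotypes at 24 h, Cyp8b1 was the only one of the 10 genes called, lower in SIRT1intKO livers, where edgeR called 2.68% of all tested genes in either direction. With only these 2 groups in the fit edgeR called 0 of 13974 genes, and Cyp8b1 was at -3.41 (edgeR adjusted p = 0.388). Its mean was 10.6-fold lower (log2 fold change -3.4, SE 1.02, 95% interval -5.48 to -1.33, edgeR adjusted p = 0.0434), with all 7 SIRT1intKO livers below the WT mean, yet the groups overlapped because WT replicates 1 and 2 were as low as most SIRT1intKO livers. Cyp7a1 differed by -3.02 (SE 0.942, 95% interval -4.94 to -1.1), with an edgeR adjusted p of 0.0511. Fgfr4 was lower by -0.92 (SE 0.204, edgeR adjusted p = 0.0112), within the fold threshold, Hsd3b7 by -0.68 (edgeR adjusted p = 0.054) and Cyp7b1 by -1.37 (SE 0.574, edgeR adjusted p = 0.139). Nr0b2 (0.24), Nr1h4 (-0.12) and Cyp27a1 (-0.21) lay near 0, and the median over the 10 was -0.45 beside -0.02 over all tested genes. DESeq2 called the same 1 gene, while an edgeR fit that kept all genes with any count did not call Cyp8b1 (-3.39, edgeR adjusted p = 0.0511).

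The direction of Cyp8b1 between genotypes at 24 h rested on the 3 libraries that resembled each other. Without them it was 0.74, from 2 WT and 6 SIRT1intKO livers, which is no test, since the 3 omitted livers held the highest Cyp8b1. Without SIRT1intKO replicate 5 alone, the highest of its group, Cyp8b1 was at -6.44 (edgeR adjusted p = 0.000103), again no test, since the omission sets the change. The call was lost without WT replicate 3 (-2.89, edgeR adjusted p = 0.0978) or 4 (-2.76, edgeR adjusted p = 0.122), or without any single one of SIRT1intKO replicates 1, 2, 3, 4, 6 and 7 (-3.17 to -3.23, edgeR adjusted p from 0.0633 to 0.0776). Cyp7a1 passed without SIRT1intKO replicate 5 (-6.49, edgeR adjusted p = 0.000369), without WT replicate 1 (-3.43, edgeR adjusted p = 0.0175) or 2 (-3.42, edgeR adjusted p = 0.0321) at 24 h, and without WT replicate 1 or 4 or SIRT1intKO replicate 1 at 6 h (-3.03 each, edgeR adjusted p from 0.0402 to 0.0497). Omissions at 24 h are no test, since SIRT1intKO replicate 5 was its group's highest and WT replicates 1 and 2 the lowest. Cyp7a1 was at -2.35 without WT replicate 3 (edgeR adjusted p = 0.155) and -2.55 without WT replicate 4 (edgeR adjusted p = 0.135). Without all 3 libraries Cyp7a1 turned to 1.13 (SE 2.4), which is no test for the same reason. Cyp7b1 passed without SIRT1intKO replicate 5 (-2.08, edgeR adjusted p = 0.0101) or WT replicate 1 (-1.79, edgeR adjusted p = 0.0225), and was at -0.9 without WT replicate 3, -1.08 without WT replicate 4 and -0.26 without the 3 libraries (edgeR adjusted p = 0.791). Those that passed are no test, since SIRT1intKO replicate 5 was the highest and WT replicate 1 the lowest of their groups in Cyp7b1. Hsd3b7 was at -0.07 without the 3 libraries. They held the highest Cyp7b1 and Hsd3b7 at 24 h, so these 2 values are no test. Fgfr4 passed without WT replicate 3 (-1.05), WT replicate 4 (-1.09) or the 3 libraries (-1.31, edgeR adjusted p = 0.000393). These fits are no test, since WT replicates 3 and 4 held the lowest Fgfr4 of the WT livers at 24 h. WT replicate 1, with 115 CPM, carried much of the Fgfr4 difference, and without that liver Fgfr4 was at -0.57 (edgeR adjusted p = 0.0596).

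The change from 0 h to 24 h was not shown to differ between genotypes in any of the 10 genes. For the interaction at 24 h edgeR called 0 of the 10 and 1 gene in all (0.00668% of those tested), Gskip (1.44, edgeR adjusted p = 0.0107), named after its values were seen. DESeq2 called 0 of the 10 and 96 genes in all, and without the 3 libraries at 24 h edgeR called 626 genes, or 4.02%. With all 34 libraries, 3 of the 10 had an unadjusted p under 0.05 and none passed, namely Cyp7a1 (-3.49, SE 1.23, edgeR adjusted p = 0.24), Cyp8b1 (-3.38, SE 1.37, edgeR adjusted p = 0.297) and Fgfr4 (-0.96, SE 0.283, edgeR adjusted p = 0.174). Cyp7b1 was at -1.6 (edgeR adjusted p = 0.394), Hsd3b7 at -0.53 (edgeR adjusted p = 0.457) and Nr1h4 at -0.22 (edgeR adjusted p = 0.84), and the median over the 10 was -0.38 beside -0.02. Without SIRT1intKO replicate 5, Cyp7a1 (-6.95, edgeR adjusted p = 0.00535) and Cyp8b1 (-6.42, edgeR adjusted p = 0.00416) passed. This is no test, since that liver was the highest of its group in both genes. Without all 3 libraries Cyp7a1 and Cyp8b1 turned to 0.65 and 0.75, which is no test, since the omitted livers held the highest levels of both genes at 24 h. Fgfr4 passed without the 3 libraries (-1.36, edgeR adjusted p = 0.00739) and was at -0.62 without WT replicate 1 (edgeR adjusted p = 0.224). Neither is a test, since WT replicates 3 and 4 were the lowest and WT replicate 1 the highest WT livers in Fgfr4. Cyp7b1 was at -0.5 without the 3 libraries (edgeR adjusted p = 0.701).

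Of the FXR target genes outside the 10, some were called higher and some lower at 6 h, and those called at 24 h were higher. Of 10 genes on a list of FXR's partner and targets, 9 could be tested, as Slc51a had no count in 31 of 34 libraries. At 6 h, 2 rose and 2 fell in WT livers (median -0.18), and 2 rose in SIRT1intKO livers (median 0.36). At 24 h, 3 rose in WT (median 0.16) and 4 in SIRT1intKO livers (median 0.47). Among all tested genes at 6 h, 7.17% were called higher and 8.4% lower in WT, and 7.86% and 8.7% in SIRT1intKO livers. At 24 h these shares were 8.32% and 7.4% in WT, and 11.9% and 11.1% in SIRT1intKO livers. Slc51b, a subunit of the basolateral bile acid exporter, ran from 0.377 to 1.8 CPM at 0 h and was 30.8, 67.9, 1.62 and 1.59 CPM in WT livers at 24 h. In SIRT1intKO livers at 24 h it was 46.7, 88.2, 47.8, 33.9, 6.66, 25.9 and 24.3 CPM, so that the 3 libraries with high Cyp7a1 and Cyp8b1 had the lowest Slc51b. It rose in both genotypes (WT 5.07, edgeR adjusted p = 0.000225; SIRT1intKO 5.55, edgeR adjusted p = 1.9e-05).

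Osgin1, another FXR target, ran from 238 to 533 CPM in WT livers at 0 h and from 10.1 to 46.6 CPM at 6 h, a fall of -4.18 on the log2 scale (SE 0.675, edgeR adjusted p = 1.36e-05). In SIRT1intKO livers at 6 h it was 24.8, 601, 520, 15.7 and 13.2 CPM, high in the same replicates 2 and 3 as Nr0b2. These 2 livers also held the highest Slc51b of their group (11.2 and 15.3 CPM), the highest Mafg (95.6 and 98 CPM), whose product represses Cyp8b1, and the highest Abcb4 (326 and 335 CPM), the phospholipid exporter gene. Slc51b was called higher in SIRT1intKO livers at 6 h (2.76, edgeR adjusted p = 0.021), but not without replicate 2 (2.32, edgeR adjusted p = 0.0719) or 3 (1.93, edgeR adjusted p = 0.129). Without both it was -0.55, which is no test, since these livers held its highest levels. Abcb11, the bile salt export pump gene, fell in WT livers at 6 h (-1.31, SE 0.249, edgeR adjusted p = 0.00011). Sdc1, a syndecan gene, rose in WT (1.46) and SIRT1intKO livers (1.9, edgeR adjusted p = 6.95e-07). Between genotypes 0 of the 9 were called at 0 h (median 0.09) and at 6 h (median 0.32), where edgeR gave 0 and 3 of them an unadjusted p under 0.05.

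At 24 h Abcb4 was the 1 gene of the FXR list called between genotypes, higher in SIRT1intKO livers (log2 fold change 1.52, SE 0.353, edgeR adjusted p = 0.0146; list median 0.18), where 1.38% of all tested genes were called higher. It was 249, 77, 133 and 148 CPM in WT and 895, 469, 269, 575, 216, 292 and 326 CPM in SIRT1intKO livers. Apoc2, an apolipoprotein gene, rose from 0 h in both (2.11 and 3.13), to 1130, 1040, 476 and 485 CPM in WT and 622 to 3900 CPM in SIRT1intKO livers. From 6 h to 24 h, 4 genes of the list rose in WT livers (median 0.57), among them Slc51b (5.25) and Osgin1 (3.73, edgeR adjusted p = 0.000462), and 3 in SIRT1intKO livers (median 0.54), among them Slc51b (2.8, edgeR adjusted p = 0.0137; 6.08 without SIRT1intKO replicates 2 and 3 at 6 h). Over the same interval 4.44% of all tested genes were called higher in WT and 6.7% in SIRT1intKO livers. Of the interactions of the list, edgeR called 0 at 6 h (median 0.42) and 0 at 24 h (median 0.39), with 2 and 4 genes at an unadjusted p under 0.05.

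Among 13 further enzyme and carrier genes of bile acid synthesis, more were called lower than higher at 24 h, without a test of the list. Among all tested genes at 24 h, 8.32% were called higher and 7.4% lower in WT livers. In SIRT1intKO livers 11.9% were called higher and 11.1% lower. At 6 h, 2 rose and 2 fell in WT (median -0.03) and 1 rose and 3 fell in SIRT1intKO livers (median -0.1), where 15.6% and 16.6% of all tested genes were called. At 24 h, 1 rose and 4 fell in WT (median -0.58) and 1 rose and 6 fell in SIRT1intKO livers (median -0.63). Akr1c14, a hydroxysteroid dehydrogenase gene, fell at 6 h in WT (-3.01, edgeR adjusted p = 0.000209) and SIRT1intKO livers (-2.97, edgeR adjusted p = 0.000544). Akr1c14 at 24 h was 8.18, 0.571, 90.4 and 84.2 CPM in WT livers, and 54.1 CPM in SIRT1intKO replicate 5 against 12.2 to 23.2 CPM in the others, high in the same 3 libraries as Cyp7a1. Akr1c14 was called lower at 24 h in SIRT1intKO (-3.21, edgeR adjusted p = 3.18e-05) as well as WT livers (-1.86, edgeR adjusted p = 0.0296), the latter not without WT replicate 1 (-1.52, edgeR adjusted p = 0.108) or 2 (-1.46, edgeR adjusted p = 0.0598), and -5.24 without the 3 libraries.

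Cyp2c70, which makes the muricholic acids of mice, fell at 24 h in WT (log2 fold change -1.35, edgeR adjusted p = 0.00275) and SIRT1intKO livers (-2.37, edgeR adjusted p = 1.29e-07). Slc27a5, the bile acid ligase gene fell in SIRT1intKO livers (-1.5, edgeR adjusted p = 1.49e-09). Ch25h, for an oxysterol-forming hydroxylase, was called higher at each time in each genotype (3.66 and 3.78 at 6 h, 4.82 and 5.51 at 24 h). It ran from 0 to 0.306 CPM at 0 h and reached at most 8.58 CPM at 24 h, so its values rest on few reads. With counts near 0 at 0 h, it passed the count filter only through livers after PHx, and these fold changes have no exact size. From 6 h to 24 h, 1 of the 13 fell in WT (Slc27a2, -1.34, and -2.21 without the 3 libraries at 24 h; list median -0.33), and 4 fell and 1 rose in SIRT1intKO livers (median -0.53). Between genotypes edgeR called 0 of the 13 at 0, 6 and 24 h (medians 0.1, -0.07 and -0.26), with 1, 0 and 4 at an unadjusted p under 0.05.

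Of 13 known regulators of Cyp7a1 and Cyp8b1, some passed the test in each genotype at 6 h and at 24 h. Among all tested genes, 15.6% in WT and 16.6% in SIRT1intKO livers were called at 6 h, and 15.7% and 23% at 24 h. At 6 h, 2 rose and 1 fell in WT (median -0.16) and 1 rose and 2 fell in SIRT1intKO livers (median 0.11). Prox1, a corepressor gene, rose in WT (1.26, edgeR adjusted p = 2.7e-05) and SIRT1intKO livers (1.29, edgeR adjusted p = 3.77e-05), from 26.7 to 51.9 CPM at 0 h to 72.5 to 99.8 CPM at 6 h in WT. Nr1i3, for the receptor CAR, fell in SIRT1intKO (-1.59, edgeR adjusted p = 0.00652) as well as WT livers (-1.07, edgeR adjusted p = 0.0461), a WT call lost in 13 of 34 single omissions (-0.9 to -1.09). These were WT replicates 2, 3, 4 and 6 and SIRT1intKO replicate 3 at 6 h, SIRT1intKO replicate 3 at 24 h, and WT replicates 1, 3, 4, 5 and 6 and SIRT1intKO replicates 1 and 3 at 0 h. At 24 h, 1 fell in WT (median -0.14) and 2 in SIRT1intKO livers (median -0.41), Klf15 in both (-1.72, edgeR adjusted p = 0.00243, and -2.01, edgeR adjusted p = 2.55e-05) and Foxa2 in SIRT1intKO livers (-1.46, edgeR adjusted p = 0.00205). Klf15 in WT was -3.48 without the 3 libraries at 24 h. From 6 h to 24 h, 2 fell in each genotype (medians -0.19 and -0.26), and between genotypes edgeR called 0 of 13 at 0, 6 and 24 h (medians 0.01, -0.02 and -0.08; 0, 1 and 1 at an unadjusted p under 0.05).

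Clock genes changed with the same groups, and the transcript of Cyp7a1 is known to cycle over the day. Of 14 clock genes, 7 rose and 3 fell at 6 h in each genotype (medians 1.25 in WT and 1.36 in SIRT1intKO), where 15.6% and 16.6% of all tested genes were called. Dbp ran from 0.414 to 1.37 CPM at 0 h and from 12.2 to 40.9 CPM at 6 h (log2 fold changes 4.39 and 5.07), and Bmal1 from 21.7 to 32.5 CPM at 0 h and from 0.943 to 8.37 CPM at 6 h (-2.31 and -2.76). At 24 h, Bmal1 was 9.28, 7.54, 24.7 and 24.0 CPM in WT and 2.05, 4.55, 6.01, 9.05, 21, 11.2 and 8.15 CPM in SIRT1intKO livers. Dbp at 24 h was 4.8, 9.66, 1.62 and 1.64 CPM in WT and 26.7, 3.3, 8.83, 4.61, 2.16, 2.55 and 5.27 CPM in SIRT1intKO livers. The 3 libraries with high Cyp7a1 and Cyp8b1 thus had the highest Bmal1 and the lowest Dbp of the 11, near the levels at 0 h. At 24 h 3 clock genes rose in WT (median 0.68), and 4 rose and 5 fell in SIRT1intKO livers (median 0.45), where 15.7% and 23% of all tested genes were called. Harvest time is not given, and the part of clock phase in the results was not tested.

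From 6 h to 24 h, 2 clock genes rose and 3 fell in WT (median -0.3), and 2 rose and 5 fell in SIRT1intKO livers (median -0.8), where 7.16% and 10.6% of all tested genes were called. Between genotypes 1 of the 14 was called at 24 h, Nfil3 (-1.18, edgeR adjusted p = 0.0146; list median -0.24), against 2.68% of all tested genes. At 0 h and 6 h edgeR called 0 (medians 0.01 and 0.09), with 0 and 1 at an unadjusted p under 0.05.

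Markers of neutrophils, of monocytes and macrophages and of cholangiocytes were also lowest in the 3 libraries at 24 h. At 24 h against 0 h, 8.32% of all tested genes in WT and 11.9% in SIRT1intKO livers were called higher. Of 7 neutrophil markers 6 were tested, and 3 rose in WT (median 2.06) and 6 in SIRT1intKO livers (median 4.47) at 24 h against 0 h. Their summed level at 24 h was 111, 91.0, 13.8 and 7.47 CPM in WT and 95.6, 954, 210, 123, 23.4, 98.8 and 60.7 CPM in SIRT1intKO livers, S100a9 being the most abundant and 1 marker being at 0 in WT replicate 4. The lowest 3 sums were those of WT replicates 3 and 4 and SIRT1intKO replicate 5. The sum of the 6 monocyte and macrophage markers, with Lyz2 the most abundant in all but 1 and with none at 0, was 59.3, 60.2, 40.9 and 35.4 CPM in WT and 86.6, 208, 85.3, 99.4, 44.3, 206 and 98 CPM in SIRT1intKO livers. Between genotypes at 24 h, 1 neutrophil marker passed, Csf3r (1.75, edgeR adjusted p = 0.00496; list median 1.49), where 1.38% of all tested genes were called higher. All 5 cholangiocyte markers were tested, 3 rose at 24 h in each genotype (medians 1.34 and 1.27), and their sum was 482, 264, 64.5 and 78.8 CPM in WT and 103, 334, 119, 267, 53.7, 180 and 146 CPM in SIRT1intKO livers, with Spp1 the most abundant and no marker at 0. The part of these cells in the levels of Cyp7a1, Cyp8b1 and Cyp7b1 was not tested.

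Other cell markers were called in both directions at 24 h. Among all tested genes, 8.32% were called higher and 7.4% lower in WT, and 11.9% and 11.1% in SIRT1intKO livers. Between genotypes at 24 h, 1.38% were called higher in SIRT1intKO livers. Of 6 monocyte and macrophage markers, 3 rose and 1 fell in WT (median 0.78) and 4 rose in SIRT1intKO livers (median 2.31), and Lyz2 (1.73) and Ccr2 (1.59) were called higher in SIRT1intKO than WT. Of 5 Kupffer cell markers, 3 fell in WT (median -1.38) and 1 rose and 1 fell in SIRT1intKO livers (median -0.52), and Marco was called between genotypes (2.28, edgeR adjusted p = 0.018), not without WT replicate 2 (2.03, edgeR adjusted p = 0.0513). Of 5 sinusoidal endothelial markers, 3 fell in WT (median -1.16), and 3 fell and 1 rose in SIRT1intKO livers (median -1.12). Of 5 stellate markers, 1 fell in WT (median 0.02), and 1 rose and 1 fell in SIRT1intKO livers (median 0.69). Of 5 red cell markers, 1 fell in WT (median -0.79), and 1 rose and 1 fell in SIRT1intKO livers (median 0.64). The 1 lymphocyte marker of 5 that could be tested fell in both (-2.35 and -2.48). All 5 together averaged 1.68 CPM in WT and 1.73 CPM in SIRT1intKO livers at 0 h, and 0.531 and 0.374 CPM at 24 h. A marker this low passes the count filter mostly through the 0 h livers, so its fall is no test.

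Most of the 9 hepatocyte markers were not called after PHx, and none was called higher. Of 9, Ttr alone fell at 6 h in WT (-1.08) and SIRT1intKO livers (-1.03), calls lost without WT replicate 4 (-0.98) and SIRT1intKO replicate 2 (-0.99). Among all tested genes at 6 h, 8.4% in WT and 8.7% in SIRT1intKO livers were called lower. At 24 h, 3 fell in WT (median -0.42) and 1 in SIRT1intKO livers (median -0.36), where 15.7% and 23% of all tested genes were called. The 4 tested of 5 Y-linked and Xist transcripts had 0 calls in each of the 11 comparisons by edgeR, with 2 at an unadjusted p under 0.05 in each comparison with 0 h. Of 6 genes that are higher in male liver, 5 fell at 24 h in each genotype (medians -2.41 and -2.85), and of 2 tested genes higher in female liver, 2 rose in WT and 1 in SIRT1intKO livers (medians 3.85 and 2.31). The female list together ran from 0.198 to 1.28 CPM in WT and from 0.414 to 0.721 CPM in SIRT1intKO livers at 0 h. In WT livers at 24 h its sum had a median of 3.8 and a maximum of 29.9 CPM. With levels this low at 0 h these rises are no test and have no exact size.

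At 0 h and at 6 h, 2 pairs of the 10 genes each passed a test of varying together across livers by Pearson's r, and none passed by Spearman's rho. Pearson's r and Spearman's rho of group-centred log2 CPM were computed for all 45 pairs of the 10 genes, with 2-sided permutation tests of 100000 resamples. As the livers at 24 h fell into separate clusters, no pooled r is given. At 0 h (12 livers), 2 of 45 pairs passed adjustment over the pairs. Cyp8b1 and Baat had r = 0.9 (permutation p = 0.00138, adjusted 0.031) and rho = 0.74 (permutation p = 0.00759, adjusted 0.0652), with r = 0.77 without the 2 livers farthest from the median of Cyp8b1. Akr1d1 and Baat had r = 0.74 (permutation p = 0.00121, adjusted 0.031) and rho = 0.8 (permutation p = 0.00131, adjusted 0.0589), with r = 0.66 without the 2 farthest.

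At 6 h (11 livers), 2 pairs passed. Cyp8b1 was lower in livers with more Nr0b2, with r = -0.85 (permutation p = 0.00139, adjusted 0.049) and rho = -0.84 (permutation p = 0.00174, adjusted 0.0763). It was r = -0.86 without the 2 livers farthest from the median of Cyp8b1 and r = -0.67 in the 9 livers left without SIRT1intKO replicates 2 and 3. Hsd3b7 and Nr1h4 varied together, with r = 0.9 (permutation p = 0.00218, adjusted 0.049) and rho = 0.86 (permutation p = 0.00352, adjusted 0.0763), r = 0.87 without the 2 farthest and r = 0.79 without SIRT1intKO replicates 2 and 3. At 0 h Nr0b2 and Cyp8b1 had r = 0.73, which did not pass (permutation p = 0.0533, adjusted 0.114) and was 0.18 without the 2 livers farthest from the median of Cyp8b1. At 24 h 0 of 45 pairs passed, yet Cyp7a1 had r = 0.98 with Hsd3b7 (permutation p = 0.00113, adjusted 0.0508) and r = 0.97 with Cyp8b1 (permutation p = 0.00774, adjusted 0.0767), which rest on the clusters of livers. Over all 34 group-centred livers 16 pairs passed by Pearson's r and 13 by Spearman's rho.

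**Figure D5:**
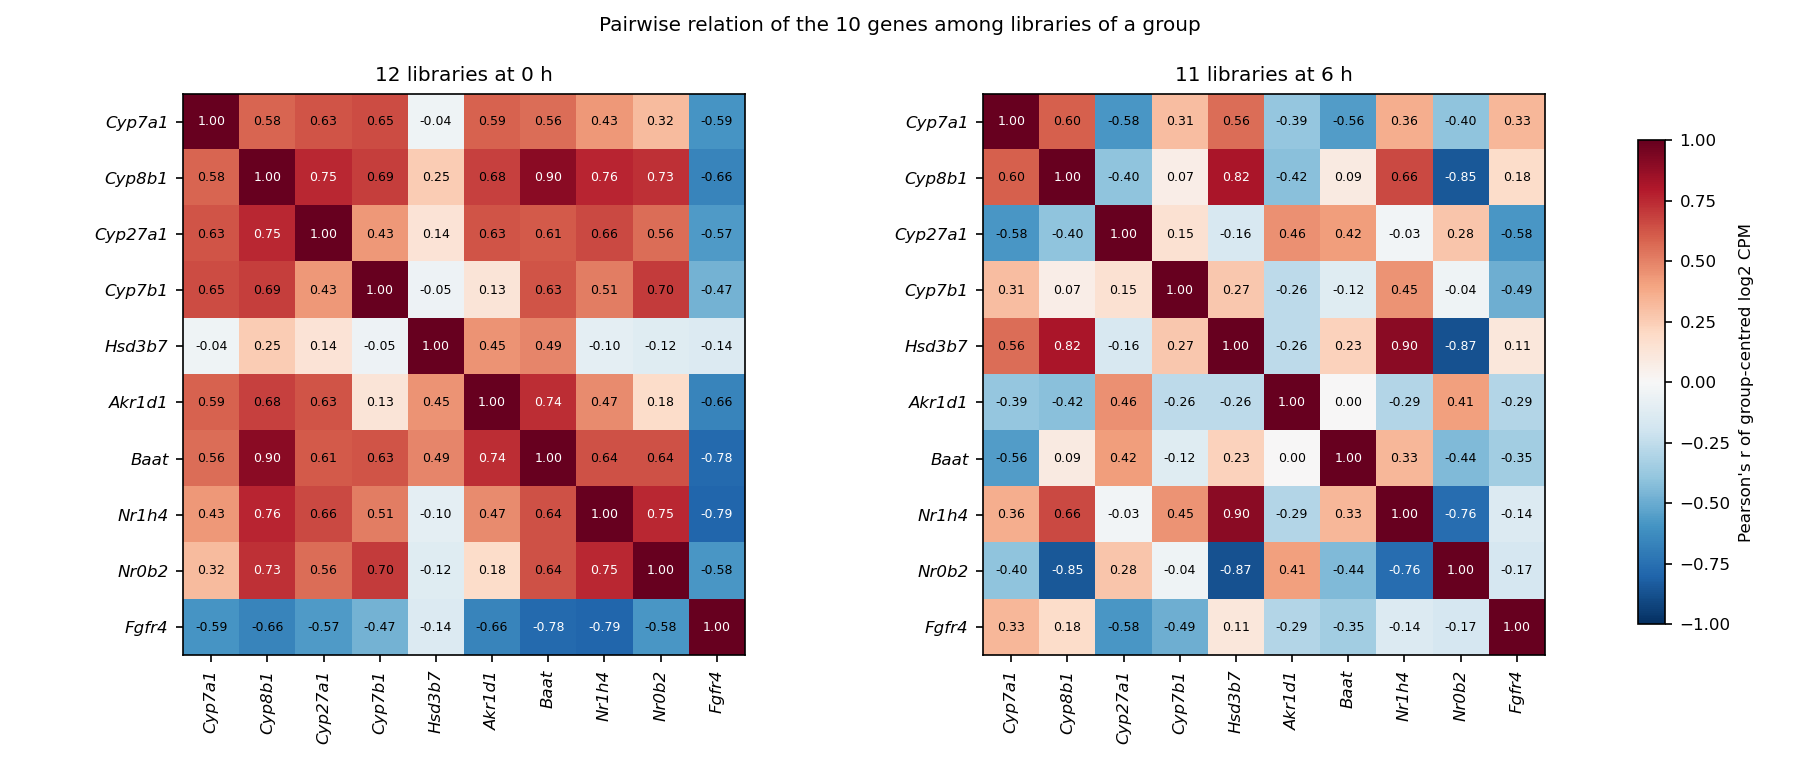
Pearson's r of group-centred log2 CPM for each pair of the 10 genes, over the 12 livers at 0 h and the 11 livers at 6 h, as a colour from -1 to 1. Nr0b2 and Cyp8b1 have 0.73 at 0 h, where the pair did not pass, and -0.85 at 6 h, where it did.

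The genes whose levels over the 34 livers were most like each of the 10 are given as a description, by Spearman's rho of log2 CPM among 12180 genes, without a test. They were Kynu (0.95), AI182371 (0.95) and Shmt1 (0.94) for Cyp7a1, and Sephs2 (0.95), Sirt3 (0.95) and Upp2 (0.94) for Cyp8b1. For Cyp27a1 they were Cyp2f2, Cyp2c37 and Slco1a1 (0.96 each), and for Cyp7b1 Dio1, Sult5a1 and Aadat (0.93 each). Hsd3b7 was most like Magix (0.94), Mcc (0.93) and Rab17 (0.92), Akr1d1 most like Eif4b, Cdc14b and C2cd2 (0.9 each), and Baat most like Scrn3 (0.86), Mindy3 (0.85) and Glul (0.84). Nr0b2 was most like the FXR target Mafg (0.79), then Rwdd3 and Hjurp (0.78 each), Nr1h4 most like Mterf4, Gm2788 and Asic5 (0.86 each), and Fgfr4 most like Chka (0.76), Kmt5a and Tcf3 (0.72 each).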

How the data were processed

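Liver RNA from 34 animals was sequenced as stranded mRNA libraries, and the table from the authors holds expected counts for each gene, which the labels say came from STAR alignment and Salmon quantification. The deposited estimated counts were rounded to whole numbers for the count models. Of 35 columns, 34 matched a library by name and 1 column was not used. The letter x is missing from the table's symbols, so 1316 symbols were restored through the gene identifier. The labels name build GRCm39, while exon lengths come from GENCODE vM21 and promoters from RefSeq on GRCm38.p6, so lengths were joined by gene identifier only.

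With edgeR 4.0.16 in R 4.3.3, libraries were scaled by TMM, filterByExpr kept 14980 of 78298 genes, and a quasi-likelihood model with 1 mean per genotype and time was fitted to all 34 libraries. Adjusted p-values are Benjamini-Hochberg over all tested genes, and a call needs this p under 0.05 as well as a log2 fold change beyond 1 in size. Log2 CPM carries a prior count of 2. Fits were tested on simulated counts.

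The 10 genes and the gene lists were chosen with earlier results of these data known. The lists are hepatocyte, neutrophil, monocyte and macrophage, Kupffer, endothelial, stellate, cholangiocyte, lymphocyte and red cell markers, FXR's partner and targets, the FGF15 receptor's partner and ligand, further synthesis enzymes, regulators, clock genes, and sex-linked or sex-biased transcripts. Named are the 10 genes, Sirt1, Klb, Fgf15, clock genes where levels are given, at most 3 called genes per list, comparison and direction with a mean of at least 1 CPM, and the 3 genes most like each of the 10. Alternatives were DESeq2 1.42.0, other scalings, other filters, only the groups compared, a replicate block, no fold threshold, leaving out each of the 34 libraries in turn and, chosen after seeing the data, fits without 3 libraries at 24 h or 2 at 6 h and pair correlations at a single time.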

Additional observations from a re-analysis of the deposited data

Results flagged for a closer look

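For each of the 10 genes in each group, the gap between the most extreme liver and its neighbour was divided by the group's range on the log2 scale, over 60 combinations. In 7 of them the ratio passed Dixon's critical value, where chance flags about 1 in 20 groups. SIRT1intKO replicate 5 at 24 h was high in 3 genes, with 5.54 CPM of Cyp7a1, 45.3 CPM of Cyp8b1 and 340 CPM of Hsd3b7. WT replicate 2 at 0 h was low in Cyp8b1, at 207 CPM, and in Nr0b2, at 19.6 CPM. SIRT1intKO replicate 5 at 6 h was low in Cyp7b1, at 194 CPM, and WT replicate 2 at 24 h was low in Baat, at 81.8 CPM.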

How the results depend on the processing

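Counts of the 10 genes called held within 1.5 times under DESeq2 and both other scalings in each of the 11 comparisons. Over the 34 fits that each left out 1 library the count ran from 4 to 4 in WT and 3 to 4 in SIRT1intKO livers at 6 h against 0 h, from 3 to 7 and 6 to 7 at 24 h against 0 h, and from 3 to 6 and 2 to 4 at 24 h against 6 h. Between genotypes it ran from 0 to 0 at 0 h, 0 to 0 at 6 h and 0 to 3 at 24 h, and for the interactions from 0 to 0 at 6 h and 0 to 2 at 24 h. Requiring at least 10 counts in every library removed Cyp7a1 and Cyp8b1 and left 8 genes, so the counts of 2 in SIRT1intKO livers at 6 h and 0 between genotypes at 24 h follow from the filter. The genotype count was 0 with every gene of at least 1 count and with only the groups compared. Without the fold threshold it was 2 (5.81% of all genes), with 7 in WT livers at 24 h against 0 h (34.1%) and 5 in SIRT1intKO livers at 24 h against 6 h (27.6%). Without the 3 libraries at 24 h, 9 genes were called in WT livers against 0 h (30.9% of all genes), 9 against 6 h (19%) and 1 for the interaction at 24 h (4.02%), so the share of all genes was higher as well. Cyp7a1 then turned to -5.38 in WT and -3.23 in SIRT1intKO livers from 6 h to 24 h, and Cyp8b1 between genotypes to 0.74. These turns are no test, since the 3 libraries held the highest Cyp7a1 and Cyp8b1 at 24 h. Without the 2 libraries at 6 h, 5 genes were called in SIRT1intKO livers from 6 h to 24 h (11.2%), 1 of them Nr0b2, by which these libraries had been picked. Slc51b at 6 h turned to -0.55, which is no test, since these libraries also held the highest Slc51b of their group. The cause was not tested. Of the 45 pairs, 16 passed by Pearson's r over all livers, 2 at 0 h, 2 at 6 h and 0 at 24 h, with fewer livers each.

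With the replicate block, 0 of the 10 genes were called between genotypes at 24 h (1.12% of all genes), where Cyp8b1 was -4.6 (edgeR adjusted p = 0.0611). Replicate numbers did not pair the livers, since deviations of 45 same-numbered pairs correlated from -0.29 to 0.21, and only 3 exceeded 0.1. At this depth levels under 1 CPM rest on few reads, which limits Cyp7a1 and Slc51b, as well as Cyp8b1 at 24 h. Cyp8b1 then had 4 and 14 counts in WT replicates 1 and 2, and 6, 9 and 8 counts in SIRT1intKO replicates 2, 3 and 6.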
